A study of Mus musculus with 6 samples.

Results

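The 10 genes described here, Prdm16, Zfp516, Ehmt1, Ebf1, Ebf2, Ebf3, Ctbp1, Ctbp2, Tle3 and Zfp423, encode transcription regulators that are known to set or to restrain the brown or beige state of fat cells. They were taken by symbol from the annotation of the array, and every probe set that carries 1 of these symbols alone was used. That gave 26 probe sets of the 45037 on the array, for 10 of 18193 named genes. The cells were differentiated mouse inguinal fat cells, the fat cells of a subcutaneous white depot, grown in culture. Control cells (3 arrays, described in the labels as non-activated) were compared with cells given 1 uM rosiglitazone for 4 days (3 arrays, described as beiging). Rosiglitazone belongs to the thiazolidinedione drugs and acts as a ligand of PPARγ, the nuclear receptor that drives fat cell formation. The treatment text of the labels names the drug for all 6 samples, so the groups follow the titles and the treatment entry of each sample. The sources used here do not give strain, sex, age or the way the cells were differentiated. They also leave unsaid whether the arrays of a group stand for separate cultures, and p-values here cover the spread between arrays alone, some or all of which may be technical.

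PRDM16 is a zinc finger protein that works mainly through partners: it coactivates brown fat genes together with C/EBPβ and PPARγ coactivators, and it silences white fat genes through the corepressors CtBP1 and CtBP2. EHMT1, a histone H3 lysine 9 methyltransferase, is an enzyme of the PRDM16 complex, and ZFP516 is a zinc finger activator that binds near Ucp1 and interacts with PRDM16. EBF1, EBF2 and EBF3 are related DNA-binding factors of fat cell differentiation, and EBF2 marks brown and beige precursors and opens brown fat enhancers. TLE3 is a corepressor that competes with PRDM16 and favours white fat genes, and ZFP423 is a zinc finger factor of preadipocytes that restrains EBF2 and so keeps the white state.

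Promoter sequence is shown for 4 members that were lower with rosiglitazone in the comparison below. They are the members with a RefSeq window (assembly GRCm38.p6) of which at least most of the 250 bases before the listed start lay outside the annotated gene, and only that outside part is printed. Each line is 5′ to 3′ on the strand of the gene, with the matches to the motifs named after the lines in capitals.
Ebf1, chr11:44617850-44618099, plus strand: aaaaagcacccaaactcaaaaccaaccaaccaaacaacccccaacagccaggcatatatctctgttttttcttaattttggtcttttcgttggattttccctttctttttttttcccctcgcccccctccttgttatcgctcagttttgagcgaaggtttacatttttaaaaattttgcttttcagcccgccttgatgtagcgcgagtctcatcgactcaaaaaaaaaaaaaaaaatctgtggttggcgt
Ehmt1, chr2:24919644-24919859, minus strand: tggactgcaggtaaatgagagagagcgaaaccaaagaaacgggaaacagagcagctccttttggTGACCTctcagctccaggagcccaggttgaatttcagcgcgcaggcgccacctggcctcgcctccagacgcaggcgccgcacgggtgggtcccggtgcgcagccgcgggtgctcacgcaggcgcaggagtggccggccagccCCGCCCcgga
Ctbp1, chr5:33275005-33275254, minus strand: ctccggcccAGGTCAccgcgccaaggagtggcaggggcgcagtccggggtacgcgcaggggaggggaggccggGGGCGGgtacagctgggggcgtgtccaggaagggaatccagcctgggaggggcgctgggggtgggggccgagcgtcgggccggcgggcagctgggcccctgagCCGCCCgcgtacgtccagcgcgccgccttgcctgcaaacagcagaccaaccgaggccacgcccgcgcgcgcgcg
Tle3, chr9:61372116-61372325, plus strand: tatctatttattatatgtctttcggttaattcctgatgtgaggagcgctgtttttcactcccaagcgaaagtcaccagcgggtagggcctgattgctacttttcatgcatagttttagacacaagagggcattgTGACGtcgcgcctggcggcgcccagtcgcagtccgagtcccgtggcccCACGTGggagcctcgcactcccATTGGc

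The motifs were searched on both strands in the 250 bases before each of 32851 listed starts, and in the 11 windows of the 8 members found there. The nuclear receptor hexamer AGGTCA, which is also each arm of the PPAR-RXR repeat, stood once in the Ehmt1 and once in the Ctbp1 sequence and occurs in 14.0% of all windows. The GC box GGGCGG stood once in the printed Ehmt1 and 2 times in the Ctbp1 sequence (32.7% of all windows). The Tle3 sequence held 1 E-box CACGTG (6.02%), 1 CCAAT box CCAAT (33.8%) and 1 CRE core TGACG (17.8%). The Ebf1 sequence is rich in runs of A and T and held none of these letters. The EBF motif, TCCC and GGGA with any 2 bases between them, occurs in 0.779% of all windows and stood in 0 of the 11 member windows. The same count of 0 held for the PPAR-RXR repeat, 2 copies of AGGTCA with any 1 base between them (0.0335% of all windows). The TATA box TATAAA (12.4%) was found in none of the printed sequences and 2 times in 1 of the Ctbp2 windows. Windows that are not printed held other matches too. The hexamer stood in a Zfp423 window, the CRE core in Ebf3 and the CCAAT box in Prdm16 and Ctbp2. GC boxes stood in Prdm16, Ebf3 and Zfp423. The shares refer to windows of 250 bases, whereas the printed Ehmt1 and Tle3 sequences have 216 and 210. These matches describe the letters in short windows and were not tested for binding.

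Values are the deposited intensities of single probe sets on a linear scale, and differences are log2 changes, rosiglitazone minus control, with the standard error (SE) of the fit across all genes in limma. A gene was represented by its brightest probe set, and called higher or lower at an adjusted p (Benjamini-Hochberg over the 12952 genes tested) under 0.05. With 3 against 3 arrays an exact permutation test cannot give a two-sided p below 0.1. Intensities of different probe sets cannot be ranked against each other, so levels are compared only between arrays. The share of all probe sets whose groups do not overlap was not computed. A lack of overlap below therefore describes the arrays of that gene and does not set it apart from other genes.

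Among the 10 regulators, Prdm16 and Ebf2 were higher with rosiglitazone, Ebf1, Ehmt1, Ctbp1, Ctbp2 and Tle3 were lower, and Ebf3, Zfp423 and Zfp516 were not called. The counts are therefore 2 higher and 5 lower of 10, beside 23.6% of all genes tested called higher and 35.8% called lower, 59.4% in all. The share of regulators that was called lies near that background, so the count as such sets the regulators apart from no other genes. The median log2 change of the 10 was −0.11, against −0.05 for all genes. By probe set, 4 were higher and 10 lower of 26, all of which passed the filter on low values, against 21.2% and 30.7% of the 27022 probe sets tested, 51.9% together.

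The scaling of the arrays matters for changes of this size. Centring each array on the median log2 value of its 27022 tested probe sets moved the log2 changes of all genes up by 0.12, and then 3 regulators were higher and 4 lower (background 35.2% and 25.4%). Quantile normalization gave 3 higher and 5 lower (background 30.5% and 29.2%). By probe set, centring gave 7 higher and 6 lower (background 32.2% and 21.1%), and quantile normalization 7 and 8 (background 27.4% and 24.9%). Prdm16 and Ebf2 were higher, and Ebf1, Ehmt1 and Ctbp2 lower, on all 3 scales. Directions of Tle3 and Ctbp1 held as well, but Ctbp1 was not called after centring (log2 change −0.03, adjusted p = 0.472) and Tle3 only narrowly (−0.11, adjusted p = 0.0495).

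**Figure D1:**
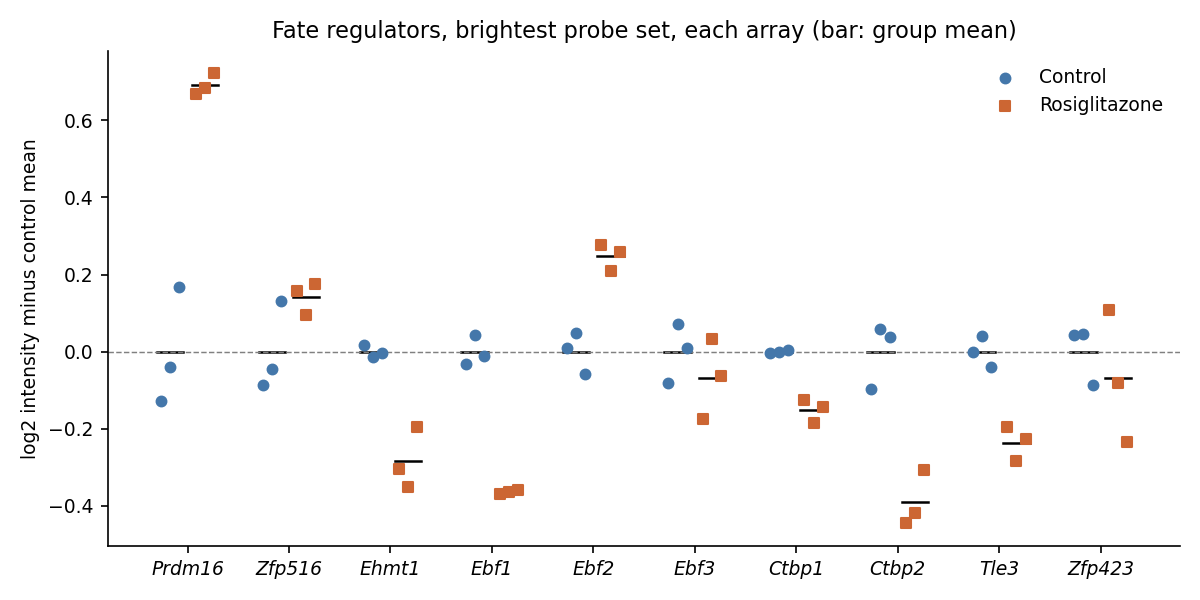
Log2 intensity of the brightest probe set of each regulator on every array, minus the mean of the 3 control arrays (circles, control; squares, rosiglitazone; bars, group means; 3 arrays a group). The 3 treated arrays of Prdm16 lie about 0.69 above the control mean, those of Ebf1 lie close together at about −0.36, and the groups overlap for Zfp516, Ebf3 and Zfp423.

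By their brightest probe sets, Prdm16 changed most among the 10. Its brightest probe set, 1440870_at, read 90.9, 96.6 and 112 on the control arrays and 158, 159.8 and 164 on the rosiglitazone arrays, so that every treated array lay above every control array. The means were 99.7 ± 10.7 and 161 ± 3.09 (SD, n = 3 each), a 1.62-fold rise (log2 change 0.69, SE 0.09, adjusted p = 8.5e-06). Of all genes tested, 13.04% changed by more in either direction. The probe set 1429309_at read 94.2, 95.4 and 74.4 in control and 112, 116 and 106 in treated cells, also without overlap. It also pointed up, by a smaller amount (log2 change 0.34, SE 0.11, adjusted p = 0.0189 over all probe sets). The dim probe set 1429308_at read 27.6 to 32.1 in control and 36.7 to 45.3 in treated cells (log2 change 0.46, adjusted p = 0.0524; called after median centring, adjusted p = 0.0168, and quantile normalization, adjusted p = 0.0390), and 1440745_at read 33.1 to 38.9 and 30.0 to 46.4 (log2 change 0.10, adjusted p = 0.707). All 4 probe sets pointed up, 2 were called, and the mean of the 4 gave a log2 change of 0.40 (adjusted p = 0.00971). Within an array, the ratio of the brightest to the second Prdm16 probe set changed by 0.35 with overlapping groups (exact permutation p = 0.3), a difference within the spread between arrays.

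Zfp516, which encodes the PRDM16 partner that activates Ucp1, was not called. Its probe set 1437921_x_at read 195, 200 and 226 in control and 230.3, 220.5 and 233 in treated cells, so 1 control array lay within the treated range (log2 change 0.14, 95% CI −0.01 to 0.30, adjusted p = 0.107). It was called higher after median centring (0.27, adjusted p = 0.00501), after quantile normalization (0.27, adjusted p = 0.00430) and without control replicate 3 (0.21, adjusted p = 0.0225). The suffix x of this probe set marks probes that can also bind other transcripts. The other probe set, 1455944_at, read 171, 134 and 135 in control and 148, 141 and 134 in treated cells and had a log2 change of −0.04 (SE 0.10), and the mean of both gave 0.05.

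Ehmt1, which encodes the methyltransferase of the complex, fell. Its only probe set, 1454776_at, read 989.9, 969 and 977 on the control arrays and 792, 767 and 854 on the treated arrays, with no overlap. Means were 978 ± 10.6 and 804 ± 44.8, and the gene fell by 0.28 on the log2 scale (SE 0.05, adjusted p = 4.4e-05). After median centring the log2 change was −0.16 (adjusted p = 0.00680) and after quantile normalization −0.18 (adjusted p = 0.00232). On the deposited scale, 43.5% of all genes changed by more.

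The 3 EBF genes differed: Ebf1 was lower, Ebf2 was higher and Ebf3 was not called. Ebf1 was lower by a log2 change of −0.36 (SE 0.03, adjusted p = 2.2e-08): probe set 1448293_at read 3322, 3500 and 3372 in control and 2630.2, 2640.2 and 2647 in treated cells. The treated arrays lay within a narrow band below every control array, with means of 3398 ± 91.7 and 2639 ± 8.65, and the log2 change was −0.24 after median centring. A further 3 Ebf1 probe sets, 1416301_a_at, 1416302_at and 1439789_at, were lower by −0.46, −0.39 and −0.40, each without overlap between the groups and with adjusted p at or below 7.3e-07. The fifth, 1457441_at, was dim at 67.0 to 84.7 and not called (−0.19, adjusted p = 0.189). Ebf1 thus fell in 4 of 5 probe sets, and 33.6% of all genes tested changed by more than its brightest one.

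Ebf2, in contrast, rose. Probe set 1418494_at read 571, 586 and 544 on the control arrays and 686, 655 and 678 on the treated arrays, so the treated arrays were all higher. The means of 567 ± 21.4 and 673 ± 16.3 gave a 1.19-fold rise (log2 change 0.25, SE 0.05, adjusted p = 2.5e-04), or 0.37 after median centring. Probe set 1449102_at read 504, 491 and 498 in control and 584, 565 and 541 in treated cells (log2 change 0.18, SE 0.05, adjusted p = 0.00666). The third, 1449101_at, read 143, 162 and 161 in control and 179, 178 and 166 in treated cells, without overlap but not called (0.17, adjusted p = 0.0993; called after median centring, adjusted p = 0.00628). A change as small as that of Ebf2 was common on these arrays, since 49.1% of all genes changed by more.

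Ebf3 was not called in any of its 3 probe sets. The brightest, 1428349_s_at, read 389.9, 434 and 415 in control and 366, 422 and 395 in treated cells, with overlapping groups (log2 change −0.07, 95% CI −0.20 to 0.06, adjusted p = 0.367), and its sign turned after median centring (0.05) and after quantile normalization (0.04). The suffix s marks probes that several transcripts share. The others had log2 changes of 0.02 (1452751_at) and −0.14 (1460666_a_at).

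A factor that multiplies all values of an array, as median centring does, leaves the log2 ratio of 2 genes within that array as it was, while quantile normalization can change it. The ratios given are those of the deposited scale. Ratios were formed for 10 pairs of regulators, chosen with the changes of single genes known. In each pair the numerator was the gene with the higher log2 change. A rise of the ratio was therefore fixed by that choice and is no evidence beyond the changes of the single genes. How many pairs of other genes lack overlap was not computed, so a lack of overlap does not set these pairs apart. Ebf2 over Ebf1 rose by 0.61 (SD 0.05 in control and 0.04 in treated arrays), Ebf3 over Ebf1 by 0.30 (SD 0.04 and 0.10) and Ebf2 over Ebf3 by 0.32 (SD 0.08 and 0.14). In each the groups did not overlap (exact permutation p = 0.1 for each, the smallest that 3 against 3 arrays allow, and adjusted p = 0.111 over the 10 pairs). Each treated array had a higher Ebf2 to Ebf1 ratio than any control array. Prdm16 over Ebf1 rose by 1.06, over Ehmt1 by 0.98, over Ctbp1 by 0.84 and over Zfp423 by 0.76, again without overlap (exact permutation p = 0.1 and adjusted p = 0.111 for each).

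**Figure D2:**
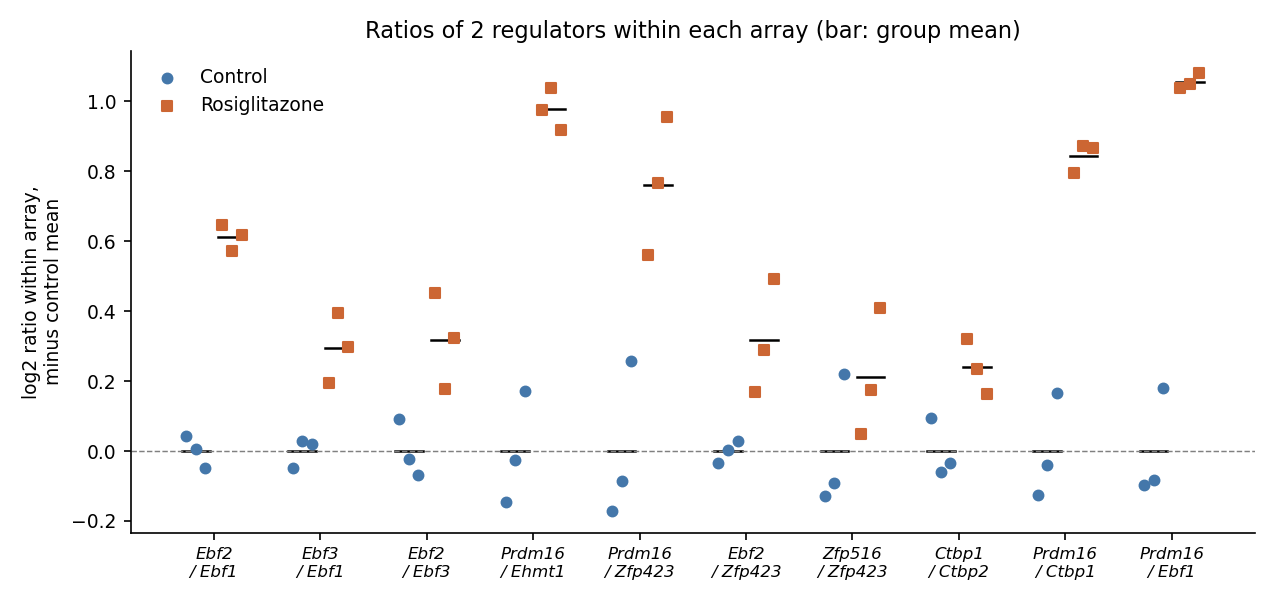
Log2 ratio of the brightest probe sets of 2 regulators within each array, minus the control mean (circles, control; squares, rosiglitazone; bars, group means; 3 arrays a group). The treated arrays lie above the control arrays for 9 of the 10 pairs, by 0.61 for Ebf2 over Ebf1, and overlap with them for Zfp516 over Zfp423. The numerator is the gene with the higher log2 change, so the upward direction follows from the choice of pairs. The share of all gene pairs without overlap was not computed, so the count does not set these pairs apart.

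Both CtBP genes, which encode corepressors that PRDM16 recruits to white fat genes, were lower on the deposited scale, but the fall of Ctbp1 was lost after median centring. Ctbp1 (1415702_a_at) read 2004, 2006 and 2013 in control and 1840.1, 1765 and 1816 in treated cells, a tight control group above all treated arrays (log2 change −0.15, SE 0.03, adjusted p = 6.9e-04; −0.09 after quantile normalization). Ctbp2 (1434705_at) read 1376, 1531 and 1511 in control and 1080.2, 1099 and 1188 in treated cells (log2 change −0.39, SE 0.05, adjusted p = 2.3e-06), also without overlap. Its second probe set, 1422887_a_at, read 947, 984 and 944 in control and 822, 849 and 863 in treated cells. That is a smaller difference (−0.18, SE 0.04, adjusted p = 0.00158), and it was −0.06 and not called after median centring (adjusted p = 0.257), and −0.08 after quantile normalization (adjusted p = 0.111). The ratio of the 2 Ctbp2 probe sets fell by 0.21 without overlap (exact permutation p = 0.1, adjusted p = 0.420 over the 7 genes with 2 or more probe sets), and the sources used here do not say which transcripts each reads. The ratio of Ctbp1 to Ctbp2 rose by 0.24 without overlap (exact permutation p = 0.1, adjusted p = 0.111).

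Of the 2 genes held to restrain the brown state, Tle3 was lower and Zfp423 was not called. Tle3 (1419655_at) read 564, 581 and 549 in control and 492, 463 and 482 in treated cells, with all treated arrays below the control arrays (log2 change −0.24, SE 0.05, adjusted p = 5.2e-04). Probe set 1419654_at gave 220, 227 and 222 against 191, 189.5 and 193 (−0.22, SE 0.07, adjusted p = 0.0108), but was not called after median centring (−0.10, adjusted p = 0.221) or quantile normalization (−0.09, adjusted p = 0.258). The dim probe sets 1449554_at and 1458512_at, between 48.2 and 64.1 on all arrays, had log2 changes of 0.03 and −0.12 and were not called, and with the mean of the 4 probe sets the gene was not called (−0.14, adjusted p = 0.108). Zfp423 (1419380_at, its only probe set) read 516, 517 and 472 in control and 540.4, 474 and 426 in treated cells. The treated arrays spread on both sides of the control arrays, and the log2 change was −0.07 (95% CI −0.22 to 0.08, adjusted p = 0.436), 0.05 after median centring and 0.01 without rosiglitazone replicate 3.

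**Figure D3:**
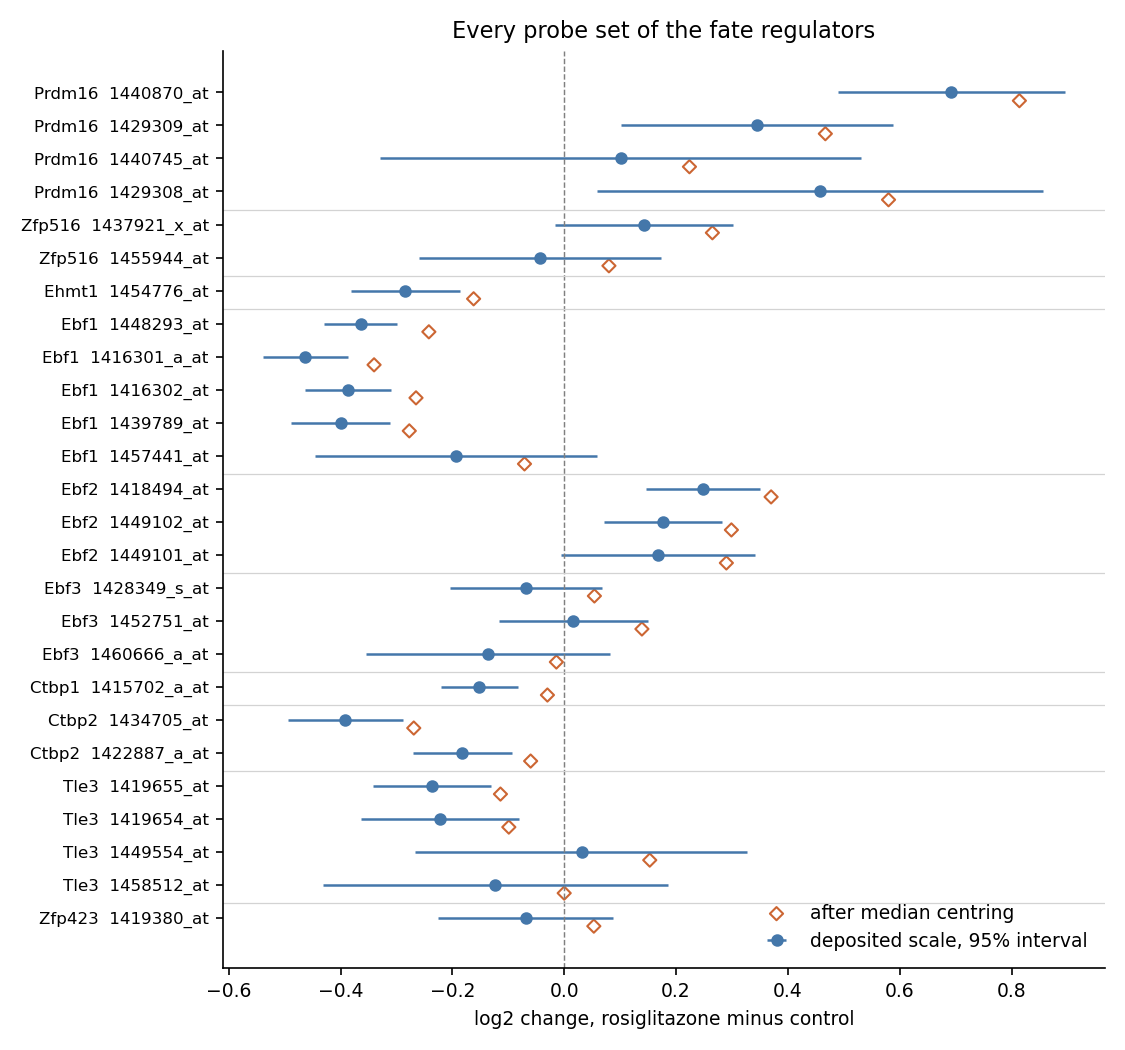
Log2 change, rosiglitazone minus control, of all 26 probe sets of the 10 regulators, with 95% intervals on the deposited scale (filled circles) and the value after median centring (open diamonds). All 4 Prdm16 and all 3 Ebf2 probe sets lie above 0, all 5 Ebf1 and both Ctbp2 sets below 0, and the Zfp516, Ebf3 and Tle3 sets fall on both sides.

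The tissue label was checked on marker genes. Fat cell markers were bright, their summed intensity lying between 70714 and 71830 in control and between 72202 and 73402 in treated arrays. Of 7 tested markers 2 were higher and 2 lower, or 5 and 2 after median centring. Other cell types' markers moved strongly with the drug. Stromal progenitor markers fell in 6 of 7, with a sum of 14057 to 14218 in control and 5860 to 6034 in treated arrays, and Dpp4 was at or under the floor of 16 on every array. Macrophage markers fell in 9 of 9 (sum 11146 to 12161 against 3686 to 3992) and smooth muscle and mural markers fell in 4 of 6 (sum 7941 to 8410 against 4616 to 4746), while the mural marker Cspg4 rose (log2 change 0.38, adjusted p = 0.00108; 0.94 with its probe sets averaged). Of 7 endothelial markers 2 passed the filter and both fell, and Emcn was at or under the floor throughout. EBF and ZFP423 transcripts also occur in fat cell progenitors, and the part of other cells in the changes described here was not tested. In cultures of mixed cells, fewer cells of a type and less RNA per cell cannot be told apart.

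Genes around the regulators were counted from 9 lists. Of their 138 genes other than the regulators 110 were tested, and 33 were higher and 54 lower. Of all genes tested, 23.6% were higher and 35.8% lower, or 35.2% and 25.4% after median centring. These shares are the background for each list below and for the marker counts above, and no list was tested as a set. Among close relatives, 2 were higher and 5 lower of 13 tested (median log2 change −0.06; 4 and 3 after median centring). Zfp521, the paralogue of Zfp423 that opposes fat cell commitment, fell from 566 ± 19.2 to 228 ± 25.2 (log2 change −1.31, SE 0.07, adjusted p = 1.2e-10; −0.72 with the mean of its probe sets). Ehmt2, which encodes the partner methyltransferase of EHMT1, fell by 0.31 on the log2 scale (−0.185 after median centring), and among the relatives of Tle3 the gene Tle1 rose by 0.18 (0.30 after median centring) while the dim Tle2, at 36.4 in control cells, fell by 0.63. The call of Tle2 was lost after median centring (−0.50). It was also lost when control array 1 or 3 was left out (−0.65 and −0.53), or rosiglitazone array 2 or 3 (−0.56 and −0.58). Prdm2 fell by 0.51 and Prdm4 fell by 0.21, while Prdm10 rose by 0.24 (no call when control array 1 or 2 or rosiglitazone array 1 was left out, at 0.22, 0.25 and 0.20). The fall of Prdm2 was not called with the mean of its probe sets (−0.16, adjusted p = 0.195), and that of Prdm4 was not called after median centring (−0.08) or quantile normalization (−0.10). Prdm10 was 0.36 after median centring.

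Corepressor and chromatin partners were mostly lower: 2 were higher and 14 lower of 21 tested, with a median of −0.19, although centring cut this to 5 higher and 8 lower. Zfp217 and Zeb2, which encode zinc finger proteins that bind CtBP, fell by 0.56 and fell by 0.49 (Zeb2 −0.29 with its probe sets averaged), and Mta1, a subunit gene of the NuRD complex, fell by 0.34 (−0.22 after median centring). Gtf2ird1, whose product acts with PRDM16 to repress fibrosis genes, rose from 184 ± 12.8 to 273 ± 23.8 (log2 change 0.57, SE 0.08, adjusted p = 9.4e-06). The other rise was the NuRD gene Mbd3 at 0.16 (adjusted p = 0.0460), a call that was lost without any 1 of the 6 arrays (0.14 to 0.17), while the change was 0.28 after median centring.

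Other regulators held to favour the brown or beige state were 5 higher and 9 lower of 16 tested (median −0.27; 5 and 8 after median centring). The rises were in Ppara, the nuclear receptor gene of fatty acid oxidation (681 ± 30.7 to 2419 ± 54.8, log2 change 1.83), in the coactivator genes Ppargc1a (1.18) and Ppargc1b (0.47), in Esrra (0.69) and in Cebpb, which encodes a PRDM16 partner (0.18, or 0.30 after median centring). Irf4, which encodes a thermogenic partner of PGC-1α, fell from 322 ± 20.4 to 123 ± 6.38 (log2 change −1.39, SE 0.07, adjusted p = 1.1e-10; −0.59 with the mean of its probe sets). Foxc2, a forkhead factor gene, fell by 0.91 (−0.375 with a floor of 64).

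Regulators held to restrain the brown or beige state were 1 higher and 9 lower of 11 tested, with a median of −0.44. After median centring they were 1 higher and 7 lower, with a median of −0.32. Rbl1, which encodes the retinoblastoma relative p107, fell by 0.94 (−0.56 with its probe sets averaged), the forkhead factor gene Foxp1 fell by 0.64, and Nrip1, which encodes the corepressor RIP140, fell by 0.60. Smad3, a TGF-β signalling gene, fell by 0.48 (−0.17 and not called with the mean of its probe sets). The rise was in Cul2, which encodes the scaffold of a ubiquitin ligase that degrades PRDM16, by 0.48, while Appbp2, the substrate receptor of that ligase, fell by 0.19 (after median centring −0.07, with no call).

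ZFP423 is also a cofactor of SMAD proteins in BMP signalling. Of 15 tested BMP signalling genes, 2 were higher and 9 lower (median −0.30), or 3 and 8 after median centring. Id1, a classical BMP target, fell by 1.15, Id4 fell by 1.01, and Chrd, a BMP antagonist gene, fell by 0.89 (−0.47 with a floor of 64). Ccn5, whose product holds ZFP423 in the cytoplasm, fell from 774 ± 59.9 to 406 ± 11.5 (log2 change −0.93, SE 0.06, adjusted p = 4.7e-10). The rises were Id3 (0.32) and Id2 (0.22, or 0.345 after median centring).

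Brown fat, white fat, type I interferon and skeletal muscle genes were described as well. Brown fat genes held to lie downstream of PRDM16 or EBF2 were higher in 13 of 13 tested (median 1.46). That count was 12 with a floor of 64 or at an adjusted p under 0.01. Ppara and Ppargc1a are counted here and also among the regulators held to favour the brown or beige state. No control array read above 16 for Ucp1 and Otop1, whose rises were therefore lower bounds of at least 93.4-fold and at least 14.0-fold, and Cidea and Fabp3 rose by 6.46 and 4.50 (Fabp3 2.40 with its probe sets averaged). With a floor of 64 the change of Otop1 was 1.81. Over the 20 alternatives described below, the log2 change of Ucp1 was 4.545 to 7.895. White fat genes were 5 lower and 2 higher of 7 (median −0.98), led by Lep (−5.02, 1 treated array under the floor), Wfdc21 (−1.95), Agt (−1.15) and Igfbp3 (−0.98), while Psat1 and Rarres2 rose by 0.32 and 0.25 (for Rarres2, averaging the probe sets gave −0.14 with no call, and leaving out those of suffix x or s gave −0.88, called lower). The log2 change of Lep was −5.17 to −3.37 over the 20 alternatives. Both the brown and the white fat list were drawn up with results of these arrays known and are no independent evidence of direction. Type I interferon genes, which PRDM16 and EHMT1 repress in fat cells, were 6 higher and 3 lower of 13 tested (median −0.02): Ifih1 and Ifit2 fell by 0.69 and fell by 0.62, and Mx1 and Oasl2 rose by 0.51 and 0.39. The count higher was 4 with a floor of 64 or at an adjusted p under 0.01. After median centring or quantile normalization the count lower was 2. The dim Mx1 lost its call when control array 1 or 2 was left out (0.40 and 0.51), and likewise for rosiglitazone array 2 or 3 (0.54 and 0.33). Of 10 skeletal muscle genes, the alternative fate that PRDM16 suppresses in brown precursors, 7 were too dim to test. The others were Ckm (0.37, adjusted p = 0.0427) and Des (0.21, adjusted p = 0.0405), which were called higher, and Acta1 (−0.09, adjusted p = 0.459). Ckm lost its call when control array 1 or 2 (0.31 and 0.33) or rosiglitazone array 2 or 3 (0.36 and 0.22) was left out, and with its probe sets averaged (0.15). Des, at 0.33 after median centring, lost it when control array 1 or 2 (0.15 and 0.21) or rosiglitazone array 1 or 2 (0.20 and 0.18) was left out.

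**Figure D4:**
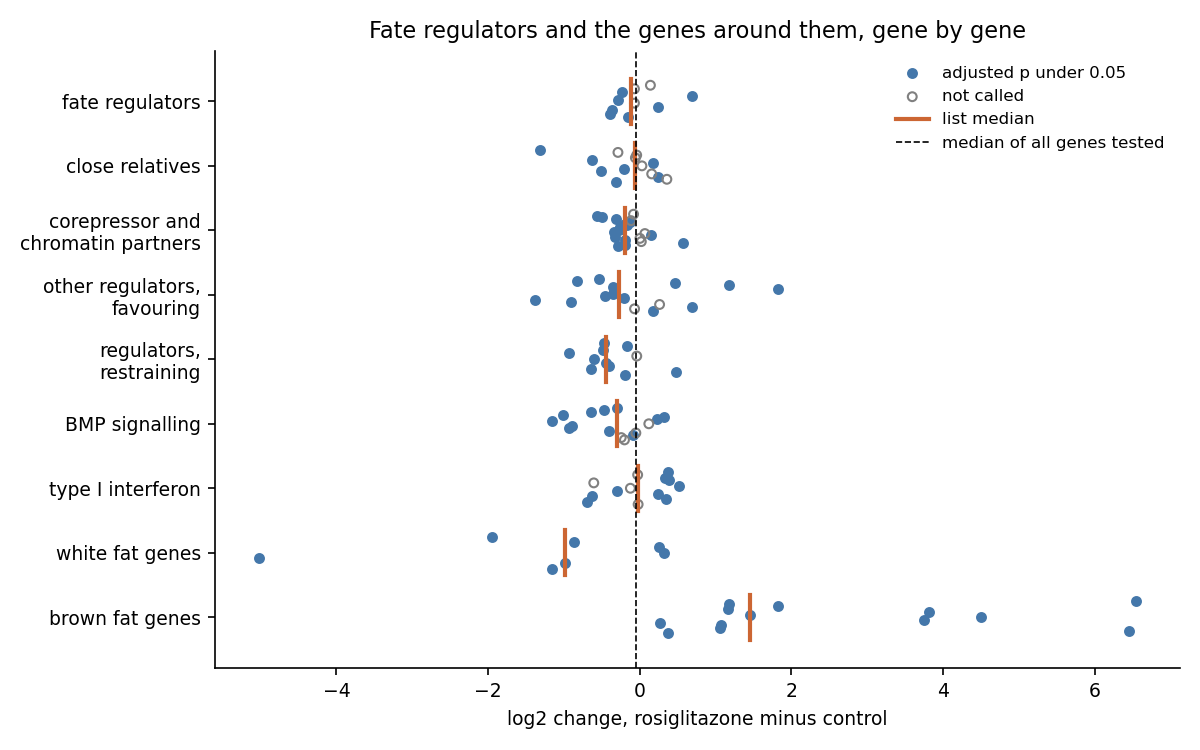
Log2 change, rosiglitazone minus control, of each tested gene in the regulator set and in 8 lists of genes around it (filled, adjusted p under 0.05; open, not called; thick bar, list median; dashed line, median of all genes tested at −0.05). The regulators lie within 0.69 of 0, whereas the brown fat genes, with a median of 1.46, reach 6.55 and the white fat genes reach −5.02.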

How the data were processed

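The authors' deposited table of linear probe set intensity from Affymetrix mouse 430 2.0 arrays, 45101 probe sets by 6 arrays, was used. The sources used here do not give the software or normalization behind it. Array medians lay between 44.46 and 46.66, and the number of arrays limits the precision. After 64 control probe sets were removed, 34945 probe sets had 1 gene symbol, 932 had several and 9160 were unlisted. Probe sets in the lowest 40% by mean intensity (under 27.35) were dropped, and the rest were floored at 16 and converted to log2. Before that drop, 28.0% to 29.0% of the values of an array lay below 16. The test was limma 3.58.1 under R 4.3.3, with lmFit and a trended eBayes, two-sided and without covariates, by gene (brightest probe set) and by probe set, and its script was tested on simulated data. Named genes outside the regulators were up to 4 called genes per list with the largest change, and all of a small count. Appbp2 and Acta1 were named after their values were seen. The members and the lists were chosen with earlier results of these data known. The 20 alternatives covered filters, floors, scaling, probe set rules, variance models, a replicate block, the threshold and each array left out.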

Additional observations from a re-analysis of the deposited data

How the results depend on the processing

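Over the 20 alternatives, the direction and the call held for Prdm16 (log2 change 0.40 to 0.81), Ebf2 (0.20 to 0.37), Ebf1 (−0.38 to −0.24), Ehmt1 (−0.33 to −0.16) and Ctbp2 (−0.44 to −0.27). Ctbp1 lost its call after median centring and Tle3 with the mean of its probe sets. Scaling moved the counts of probe sets of the 10 regulators most: from 4 higher and 10 lower to 7 higher and 6 lower after median centring, and to 7 higher and 8 lower after quantile normalization. It also turned the sign of uncalled genes: Zfp423 was 0.031 after quantile normalization and 0.053 after centring, Ebf3 was 0.039 and 0.054, and Acta1 was 0.021 and 0.036. Zfp423 was 0.013 without rosiglitazone replicate 3, and Acta1 was 0.004 without control replicate 2. Without probe sets of suffix x or s, Ebf3 was 0.016, Zfp516 was −0.043 and Rarres2 was −0.88; with the mean of its probe sets Rarres2 was −0.14. The cause of these reversals was not tested. Leaving out each array in turn gave 2 to 3 regulators higher and 5 lower, 3 to 5 of their probe sets higher and 10 lower, and 26 to 31 listed genes higher and 49 to 52 lower. With the replicate number as a block, 2 regulators were higher and 5 lower, and the listed genes went from 33 higher and 54 lower to 31 and 52: the calls of Mbd3 and Des were lost, and the counts of restraining regulators and of BMP genes called lower each went from 9 to 8. Samples with the same number did not visibly deviate together (correlations of −0.04, −0.02 and 0.02, against −0.06 to 0.07 for samples of different numbers). The sources used here do not say what the numbers stand for. With 3 arrays a group these correlations cannot exclude a pairing. Of the 50 other genes named or counted for naming, 37 kept direction and call under every alternative that gave a value. With quantile normalization and with centring, corepressor and chromatin partners went from 2 higher and 14 lower to 5 and 9 and to 5 and 8, and with centring close relatives went from 2 and 5 to 4 and 3. Small counts of genes called higher also moved by over 1.5 times: restraining regulators from 1 to 2 with no filter or a 20% filter, white fat genes from 2 to 1 with either probe set rule, and skeletal muscle genes from 2 to 0 or 1 under 12 alternatives. Corepressor partners and close relatives called higher fell from 2 to 1 at an adjusted p under 0.01 and without single arrays, the partners also with the block. At a floor of 64, Mx1 and Tle2 had no measurable change.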
